A study of Mus musculus
Mus spretus with 18 samples.

Results

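Liver was compared with cortex, heart, kidney, lung, spleen and embryonic stem cells (ESC) in 14 of the 18 RNA-seq libraries of the series. The 2 liver libraries were taken by their tissue label and set against the 12 libraries of the 6 other tissues, with 2 libraries per tissue. The organs came from female F1 hybrid mice, 8 weeks of age, from a cross of female C57BL/6J with male SPRET/EiJ, and every library therefore carried 1 genome of each species. The strain labels of the liver libraries read C57BL/7J x SPRET/EiJ and C57BL/8J x SPRET/EiJ, whereas the methods name 1 cross for all organs. The ESC libraries came from 2 independent clones of F1 cells grown in culture, and the organs came from 2 animals. Fibroblasts of the same cross treated with DMSO or pladienolide B made up the other 4 libraries and entered no test. The liver reads had been produced for an earlier study of these animals, so the sequencing run and the tissue cannot be told apart.

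The liver is built mainly of hepatocytes, which secrete most plasma proteins, make bile acids, detoxify foreign compounds, dispose of ammonia as urea and store and release glucose. Kupffer cells, sinusoidal endothelium, stellate cells and cholangiocytes make up the rest of the organ. A skipped exon is either kept in or left out of the mature mRNA, and its percent spliced in (PSI, given here as a share from 0 to 1) is the share of transcripts that keep it. Hepatocytes are a classic case, since the plasma fibronectin they secrete lacks extra domains that fibroblasts and other cells include.

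The labelled tissue was checked against marker genes. All 6 hepatocyte markers (Alb, Ttr, Apoa1, Cyp2e1, Cps1 and Serpina1e) were called higher in liver and summed to 116653 and 134163 TPM (transcript abundance corrected for gene length and library size), against 0.753 to 1424 TPM in the other 12 libraries. Markers of cortex, heart muscle, kidney tubule, lung and ESC summed to at most 4.34 TPM in a liver library, and lymphocyte markers to 4.52 and 4.82 TPM. Kupffer cell markers summed to 168 and 257 TPM, against 4.27 to 652 TPM elsewhere, the highest in spleen. Of these 6 only 1 was called higher, Clec4f at 54.2 and 82.6 TPM. All 6 markers of sinusoidal endothelium were above 1 TPM and summed to 63.7 and 83.5 TPM. Other libraries had sums of 14.1 to 1011 TPM for them, the highest in lung, and 2 were called higher and 1 lower. The stellate cell sums of 172 and 170 TPM were mostly Dcn (151 and 145 TPM), and the cholangiocyte sums of 66.3 and 56.2 TPM mostly Spp1 (61.2 and 51.2 TPM). The remaining cholangiocyte markers were low. Krt7 was at 0.153 and 0.233 TPM, Krt19 at 1.84 and 0.851 TPM and Sox9 at 1.86 and 2.87 TPM. Epcam was at 1.19 and 0.983 TPM and Cftr at 0.0664 and 0.0608 TPM. Erythroid markers summed to 83.1 and 59 TPM. Markers of exocrine pancreas summed to 37.6 and 25.3 TPM, nearly all of it Cela1 (36.2 and 25.3 TPM), and Pnlip was listed at 0 in both liver libraries. The part of these cells in the results was not tested. In bulk tissue, fewer cells of a type and less RNA per cell cannot be told apart, and this holds for every level given for liver.

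A few genes took up much of the liver RNA. The 10 most abundant genes held 25.5% to 28.1% of the liver TPM (8.01% to 25.6% elsewhere), and the 100 most abundant held 53.6% to 56.6% (23.8% to 48.2% elsewhere). Because TPM sums to the same total in each library, the levels of all other genes shrink as these grow. Liver had 12505 and 12512 genes at 1 TPM or more, fewer than the 14097 to 17207 of any other library. Across the 21772 genes tested, the median of liver minus the mean of the 6 other tissues was -1.05 on the log2(TPM + 1) scale. Median-of-ratios scaling, which equalises libraries by the median ratio of the genes detected in all of them, gave liver size factors of 0.450 and 0.469 against 0.736 to 1.47 elsewhere, moved this median by 0.66 to -0.39. Counts for the gene lists are given as deposited and after scaling.

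**Figure D1:**
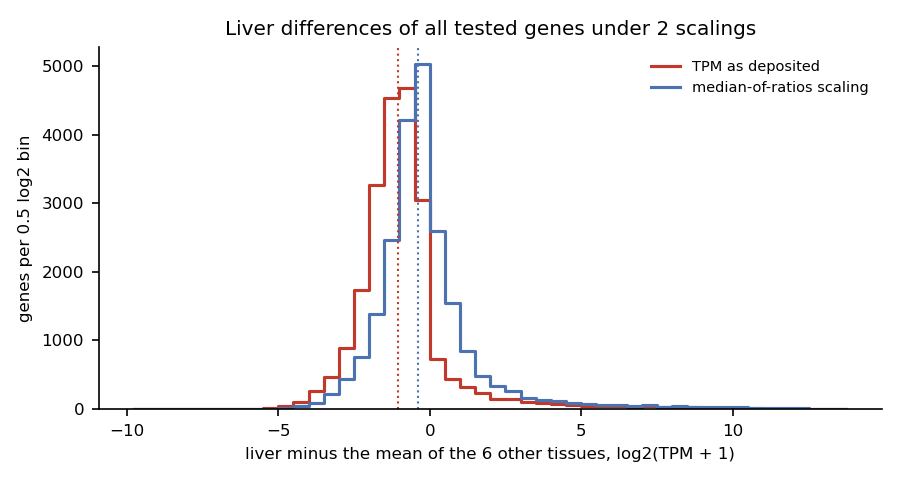
Distribution over all 21772 tested genes of the difference between liver and the mean of the 6 other tissues, in log2(TPM + 1) on the horizontal axis and genes per bin on the vertical axis, with dotted lines at the medians. The red curve of deposited TPM is centred at -1.05 and the blue curve after scaling at -0.39, and both have a long tail to the right.

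A gene was called when liver differed from each of the 6 tissues (limma, the largest of the 6 p-values, Benjamini-Hochberg adjusted p under 0.05), lay on the same side of all 6, and was at least 1 log2 unit from the nearest. By this rule 643 genes were higher in liver (2.95% of those tested) and 2172 were lower (9.98%). After scaling, 1148 genes were higher (5.27%) and 505 lower (2.32%), so the higher genes made up 22.8% of the calls as deposited and 69.4% after scaling. All 643 higher genes were also called higher after scaling. Of the 2172 lower genes, 502 were called lower both ways (2.31% of those tested), and the other 1670 were lower only in TPM as deposited. Kidney was the nearest tissue for 321 of the 643 higher genes (49.9%), followed by lung with 104, ESC with 76, cortex with 73, spleen with 46 and heart with 23. Nearest means the smallest distance and need not mean a high level. For the 10 genes farthest above, no kidney library exceeded 61 TPM.

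The genes farthest above all other tissues encoded secreted and metabolic proteins of the hepatocyte. Albumin, Alb (ENSMUSG00000029368, chr5:90460870-90476602), the main plasma protein, stood at 84064 and 103050 TPM in liver, and at a lowest, median and highest value of 0, 0.131 and 61 TPM in the other 12 libraries. Kidney held the highest of these values, and its mean of 47.4 TPM was 10.97 ± 0.69 log2 units (SE) below liver (limma, adjusted p = 1.9e-06). Sult3a1, a sulfotransferase, had the largest margin: liver stood at 4806 and 4345 TPM, no other library exceeded 1.11 TPM, and the distance to kidney was 11.24 ± 0.12 (adjusted p = 7.3e-12). Serpina3k, a plasma protease inhibitor, reached 12665 and 13704 TPM against at most 8.6 TPM elsewhere. Apoa1, the main protein of high density lipoprotein, reached 10287 and 10543 TPM against at most 7.2 TPM. Neither gene came near its liver level in another tissue, with distances to kidney of 11.03 ± 0.38 and 10.68 ± 0.32.

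The other 6 of the top 10 showed the same separation, with 1 gene taken per family of near-identical copies. Cyp3a11, a cytochrome P450 of drug oxidation, stood at 4819 and 5072 TPM (at most 2.16 elsewhere). Ces1c, a carboxylesterase released into plasma, stood at 3894 and 3639 TPM (at most 2.04). Cps1, the enzyme that brings ammonia into the urea cycle, stood at 1946 and 2235 TPM (at most 0.9, in an ESC library). Liver and the other libraries did not overlap for any of the 10, which follows from their choice by the largest margins. Mup18, a major urinary protein, was at 3345 and 1908 TPM, so its replicates differed more than those of the others. Cyp2c70, which hydroxylates bile acids, was at 2351 and 2132 TPM, and plasminogen, Plg, at 2126 and 1973 TPM. The log2 distances of the 10 ran from 10.11 to 11.24 as deposited and from 11.23 to 12.36 after scaling.

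**Figure D2:**
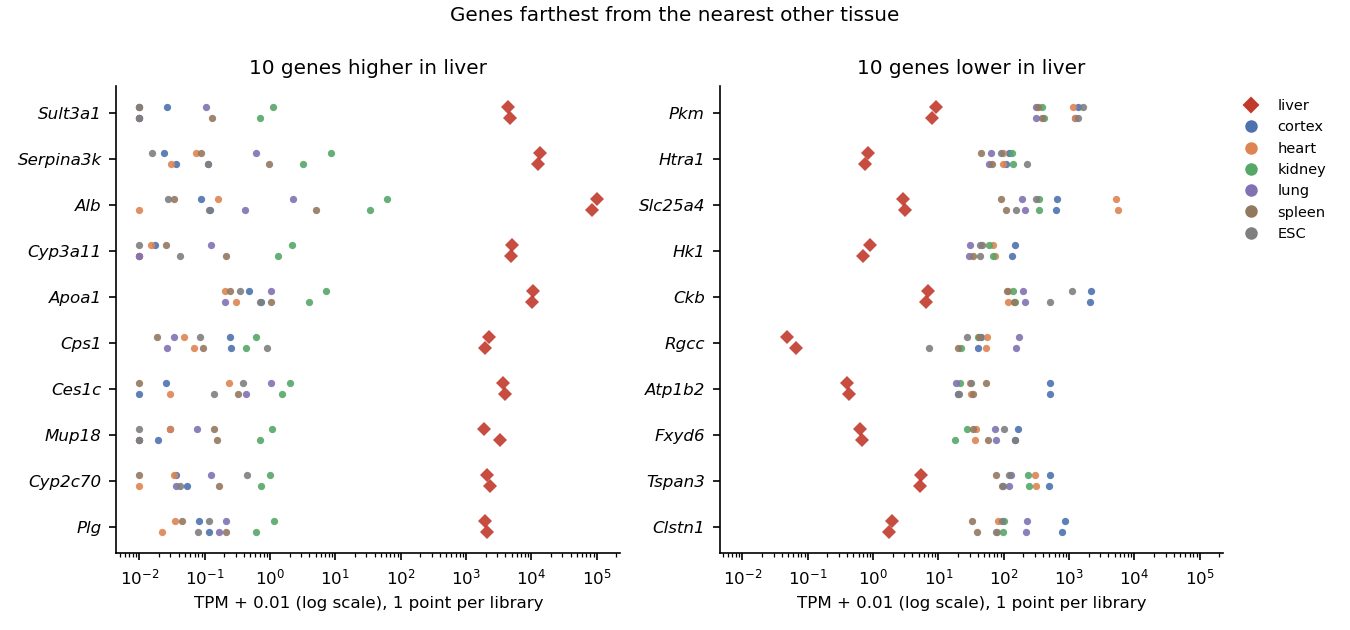
TPM in each of the 14 libraries (log axis, with a small offset so that zeros can be drawn) for the 10 genes farthest above and the 10 farthest below all other tissues; diamonds are liver libraries and dots the other tissues. Liver points stand at 1908 TPM or more on the left, where no other library exceeds 61 TPM, and at 9.04 TPM or less on the right.

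Several of these genes belong to families of close copies whose reads the counting could have split, so single members are uncertain. As families, 30 of 31 tested Mup genes, 12 of 13 Cyp2c, 9 of 9 Cyp3a, 7 of 7 Ugt2b, 7 of 13 Serpina3, 5 of 6 Serpina1 and 4 of 6 Ces1 genes were called higher and none was called lower as deposited. After scaling the counts were 31, 12, 9, 7, 10, 5 and 5, again with none lower. Over all genes tested, 2.95% were higher as deposited and 5.27% after scaling. Summed Mup TPM was 21545 and 12082 in the liver libraries against at most 12.1 elsewhere, and the liver replicates thus differed by more than 1.5 times. The Cyp3a sums of 6324 and 6983 TPM, against at most 38.3 elsewhere, were close between replicates.

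Carrier and transport proteins of plasma had the largest share of members called among the lists examined. Of 30 genes for carrier and transport proteins, 29 were called higher and none lower as deposited (all genes: 2.95% and 9.98%). All 30 were higher after scaling (all genes: 5.27%). The median member lay 8.97 log2 units above the mean of the other tissues as deposited (all genes: -1.05). Apoa2, a second protein of high density lipoprotein, was at 24191 and 19876 TPM, and Apoh, a phospholipid-binding glycoprotein, at 2624 and 2221 TPM. Haptoglobin, Hp, which binds free haemoglobin, was the 1 member not called. It stood at 4089 and 3654 TPM in liver, up to 3350 TPM in lung, with a distance of 0.31 ± 0.27 (limma, adjusted p = 0.52), and it was called higher after scaling.

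Among 22 genes of coagulation and fibrinolysis, 18 were higher and none lower as deposited (all genes: 2.95% and 9.98%), with a median of 7.77. Scaling made these counts 19 and 0 (all genes: 5.27% and 2.32%). Antithrombin, Serpinc1, stood at 2435 and 2237 TPM, fibrinogen gamma, Fgg, at 5438 and 6244 TPM, and prothrombin, F2, at 652 and 657 TPM, where the highest other libraries had 1.59, 31 and 2.62 TPM. The exceptions were shared with other organs. F13b, a subunit of factor XIII, reached 175 and 193 TPM in liver and 106 TPM in kidney, a distance of 0.87 ± 0.29 that missed the 1 log2 unit asked for. Protein S, Pros1, was at 18.9 and 20 TPM, inside the 7.76 to 126 TPM of the other libraries.

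Of 24 complement genes, 15 were higher and none lower as deposited (all genes: 2.95% and 9.98%), with a median of 5.01. The scaled counts were 18 and 0 (all genes: 5.27% and 2.32%). C9, of the terminal pathway, stood at 322 and 354 TPM (at most 0.487 elsewhere), C8b at 276 and 267 TPM (at most 0.902) and the mannose-binding lectin Mbl2 at 1047 and 917 TPM (at most 1.59). The inhibitor C4bp was at 330 and 333 TPM, 7.80 ± 0.08 log2 units above kidney. The proteases of the first component came nearer to lung: C1s was at 232 and 237 TPM against up to 136 TPM, and C1ra at 145 in both liver libraries against up to 82.3 TPM, with distances of 0.88 ± 0.21 and 0.95 ± 0.15. Both were called only after scaling.

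Nitrogen metabolism was set apart as well. Of 8 urea cycle genes, 5 were higher as deposited (all genes: 2.95%) and 8 after scaling (all genes: 5.27%), with a median of 5.12. Beside Cps1, arginase Arg1 stood at 1212 and 1158 TPM (at most 3.57 elsewhere), ornithine transcarbamylase Otc at 245 and 202 TPM (at most 0.438) and Nags, which makes the activator of Cps1, at 54.1 and 50.6 TPM (at most 1.76). Argininosuccinate synthase, Ass1, was highest in liver at 2722 and 2255 TPM, but kidney reached 1576 TPM, and the distance of 0.76 ± 0.15 stayed below 1. The mitochondrial aspartate carrier Slc25a13 was at 169 and 151 TPM with heart at up to 128 TPM.

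Amino acid catabolism counted 22 of 33 genes higher and 1 lower as deposited (all genes: 2.95% and 9.98%), with a median of 5.86. Scaled TPM gave 30 and 0 (all genes: 5.27% and 2.32%). Tyrosine aminotransferase, Tat, was at 1798 and 1349 TPM, tryptophan dioxygenase, Tdo2, at 852 and 810 TPM, and the glyoxylate enzyme Agxt at 556 and 461 TPM, while no other library exceeded 1.38, 0.943 and 0.27 TPM. Glutamine synthetase, Glul, was shared with cortex, at 1174 and 1119 TPM against up to 1229 TPM. The member called lower was Mat2a, described with its liver counterpart below.

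Bile acid synthesis and transport had 15 of 20 genes higher and none lower as deposited (all genes: 2.95% and 9.98%), with a median of 6.39. Scaling made these counts 18 and 0 (all genes: 5.27% and 2.32%). The uptake carriers of the blood side, Slc10a1 at 1050 and 829 TPM and Slco1b2 at 611 and 505 TPM, and the export pump of the bile side, Abcb11 at 403 and 405 TPM, stayed under 0.6 TPM in every other library. Slc27a5, which activates bile acids, was at 943 and 933 TPM, 7.45 ± 0.18 above ESC. Slc27a2, a related acyl-CoA synthetase, was higher in kidney at up to 1689 TPM than in liver at 763 and 619 TPM. Of 32 phase I and II xenobiotic enzymes, 23 were higher and none lower as deposited, with a median of 6.69. They numbered 25 and 0 after scaling, beside the same shares of all genes. Cyp2f2 was an exception, since lung at up to 2816 TPM exceeded liver at 1394 and 1148 TPM, and Aldh1a1, at 1915 and 1344 TPM, had up to 1184 TPM in lung.

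Lipid metabolism was mixed. Of 31 genes of fatty acid, ketone and lipoprotein metabolism, 11 were higher and 1 lower as deposited, with a median of 2.04. The scaled counts were 19 and 0, and the shares of all genes are given with the next list. The fatty acid binding protein Fabp1 stood at 9897 and 9750 TPM (at most 320, in kidney) and hepatic lipase, Lipc, at 288 and 236 TPM (at most 8.81, in spleen). The desaturase Scd1 stood at 1423 and 3729 TPM, so that the replicates differed by more than their distance to kidney of 0.95 ± 0.50. Iron and haem genes counted 5 higher and 1 lower of 15 as deposited (all genes: 2.95% and 9.98%), with a median of 1.32. After scaling the counts were 5 and 0 (all genes: 5.27% and 2.32%). The genes of the hepcidin axis were called: Tmprss6 at 320 and 353 TPM, Tfr2 at 238 and 244 TPM, and the hormone itself, Hamp, at 5387 and 2456 TPM and its near copy Hamp2 at 1237 and 3266 TPM. The pair moved in opposite directions between the 2 liver libraries, and each value is uncertain because reads could be shared between the copies, which was not tested. Bmp6, a ligand that induces hepcidin, was the gene called lower, at 1.13 and 1.44 TPM against 4.37 to 246 TPM elsewhere, and it was not called after scaling. The ferritin chains Fth1 and Ftl1 lay inside the range of the other libraries.

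**Figure D3:**
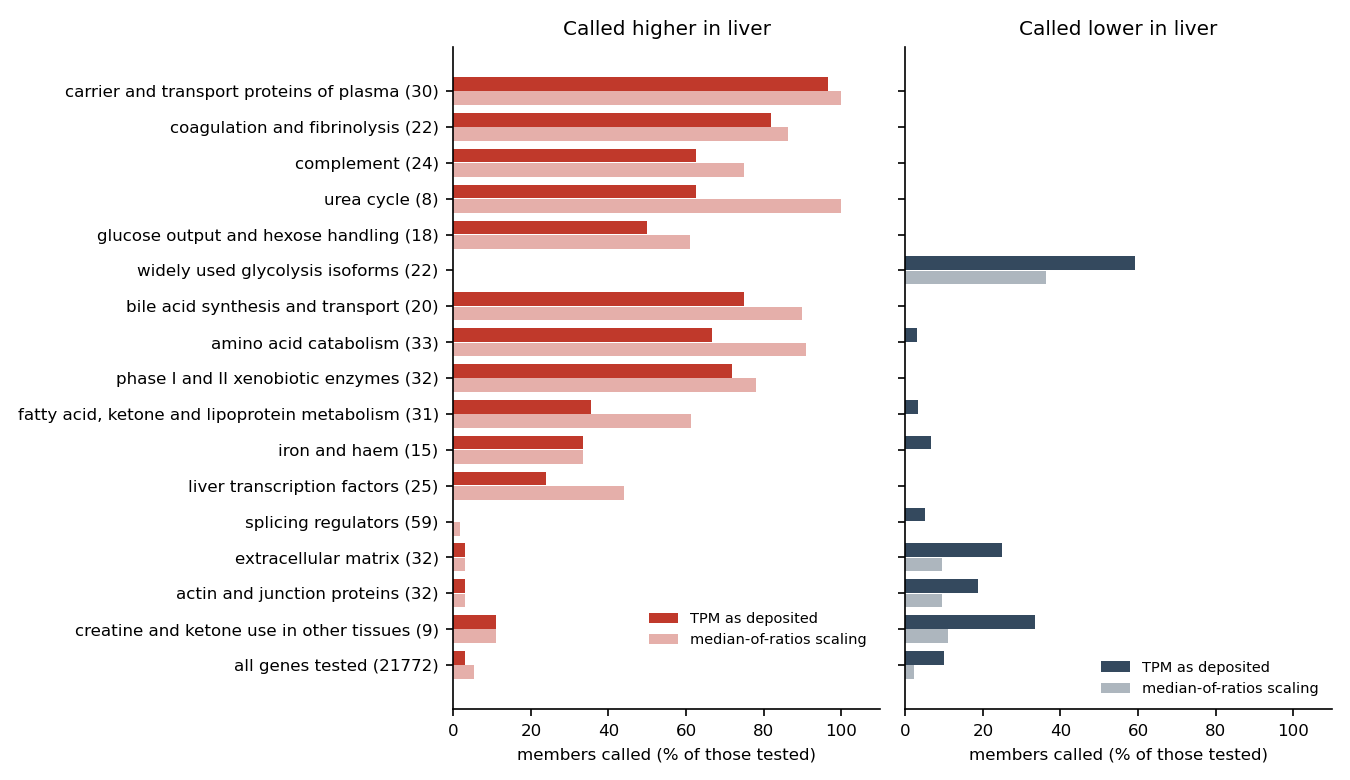
Share of each gene list called higher (left) or lower (right) in liver, in percent of the members tested (number in brackets), for TPM as deposited (dark bars) and after median-of-ratios scaling (pale bars). The plasma carriers have 29 of 30 members called higher. The list named widely used glycolysis isoforms, which also holds glycogen enzymes, has 13 of 22 called lower as deposited and 8 after scaling.

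Glucose genes split by isozyme. Of 18 genes of glucose output and hexose handling, 9 were higher and none lower as deposited (all genes: 2.95% and 9.98%), with a median of 4.87. Scaled TPM gave 11 and 0 (all genes: 5.27% and 2.32%). Gckr, a regulator of hexose phosphorylation, stood at 157 and 129 TPM (at most 0.825 elsewhere) and the glycogen-targeting subunit Ppp1r3b at 157 and 153 TPM (at most 22.3, in heart). Fructose bisphosphatase, Fbp1, was high in liver, at 884 and 881 TPM, but kidney was higher still at up to 1143 TPM. Of 22 genes listed as widely used glycolysis isoforms, none was higher and 13 were lower as deposited (all genes: 2.95% and 9.98%), with a median of -3.57. The list also holds glycogen enzymes (Gys1 and Pygb) and the muscle type Pgam2. Under both scalings 8 of the 13 were lower (all genes: 2.31%), namely Hk1, Pfkp, Aldoa, Pkm, Ldhb, Pgam2, Gys1 and Pygb. For Pfkl and Pfkm the margin to spleen changed sign after scaling, from -1.21 to 0.16 and from -1.25 to 0.11. Ldha, at 445 and 406 TPM, and Pgam1, at 59.2 and 56.6 TPM, lay inside the range of the other tissues.

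Pairs of enzymes for the same or linked steps were read side by side, and the 4 pairs were chosen after their values had been seen. Muscle type pyruvate kinase, Pkm (ENSMUSG00000032294, chr9:59656576-59679372), was the gene farthest below all tissues. It stood at 7.94 and 9.04 TPM in liver and at 311, 794 and 1657 TPM as the lowest, median and highest of the other 12 libraries, a distance to lung of -5.05 ± 0.11 as deposited (limma, adjusted p = 9.1e-10) and -3.87 after scaling. The liver type enzyme, Pklr, was at 136 and 144 TPM, above kidney at a mean of 36.6 TPM and spleen at up to 48 TPM, a distance of 1.91 ± 0.45 (adjusted p = 0.0089). Without liver replicate 2 this call was lost (adjusted p = 0.053), while the distance stayed at 1.87.

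Hexokinase 1, Hk1, was at 0.695 and 0.891 TPM in liver and 29.2 to 146 TPM elsewhere. Glycogen synthase showed an exchange of isozymes. Gys2 stood at 67.5 and 63 TPM in liver (at most 15.7 elsewhere, in kidney) and Gys1 at 1.51 and 1.32 TPM (12.9 to 104 elsewhere). For glycogen phosphorylase, Pygl was at 256 and 248 TPM (up to 133 in ESC) and Pygb at 2.64 and 2.98 TPM (40.4 to 469). All 4 isozymes of these glycogen steps were called under both scalings, and liver did not overlap any other library for any of them. Since the pairs were chosen after their values had been seen, this is a description only.

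Oxct1, which other organs need to burn ketone bodies, was at 16.4 and 18.4 TPM in liver and 69 to 1184 TPM elsewhere, a distance of -2.03 ± 0.15 that became -0.66 after scaling and was then not called. For the synthesis of S-adenosylmethionine, Mat1a was at 2667 and 2403 TPM (at most 9.4 elsewhere) and Mat2a at 37.4 and 30.6 TPM (109 to 446). The margin of Mat2a was -1.67 ± 0.25 as deposited, and after scaling it was not called.

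**Figure D4:**
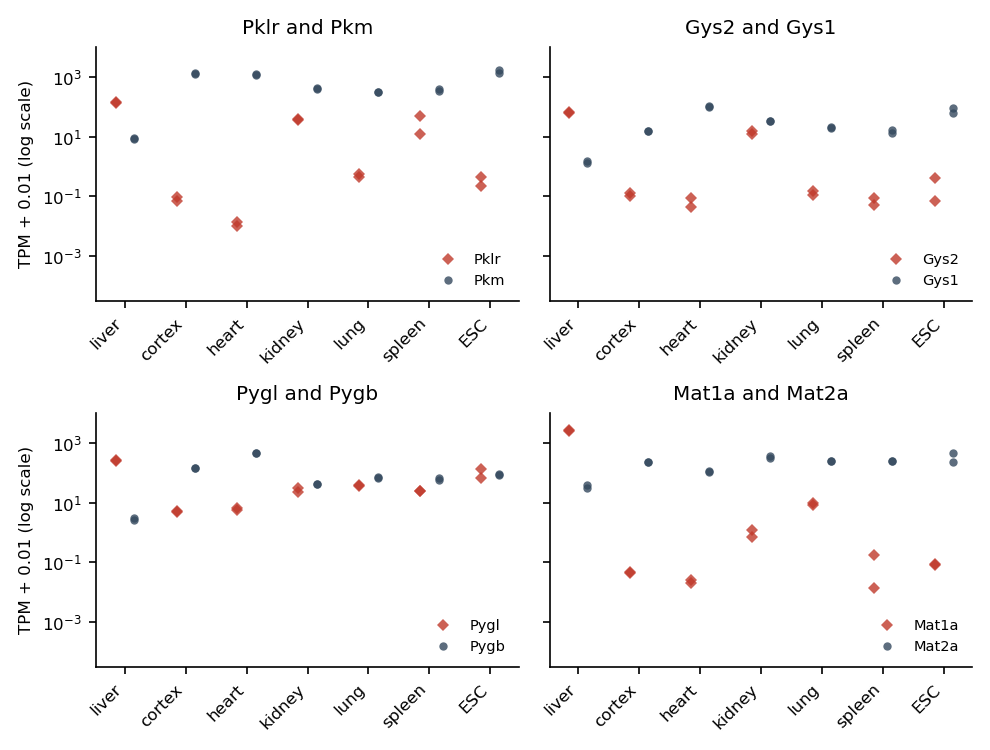
TPM (log axis, with a small offset) by tissue for 4 pairs of enzymes, 1 point per library, with the member high in liver as red diamonds and its counterpart as dark dots. In liver the red member is above the dark one in every pair, for example Pklr at 136 and 144 TPM against Pkm at 7.94 and 9.04 TPM.

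The other genes among the 10 farthest below all tissues had varied roles. Htra1, a secreted serine protease, was at 0.741 and 0.832 TPM in liver and 45.7 to 224 TPM elsewhere, a distance of -4.97 ± 0.33. Slc25a4, the mitochondrial ADP/ATP carrier of heart and muscle, was at 3.09 and 2.91 TPM against 91.1 to 5597 TPM. Brain type creatine kinase, Ckb, was at 6.51 and 6.98 TPM against 113 to 2142 TPM. Atp1b2 and Fxyd6, a subunit and a regulator of the sodium pump, were below 0.7 TPM in both liver libraries, where the lowest other libraries had 18.4 and 17.8 TPM. Tspan3, a tetraspanin, was at 5.31 and 5.45 TPM (77.3 to 514 elsewhere), Clstn1, a calsyntenin, at 1.72 and 1.94 TPM (33 to 875), and Rgcc, a cell cycle regulator, at 0.0551 and 0.0376 TPM (7.1 to 169). All 10 of these genes, Pkm and Hk1 included, were called lower under both scalings, with scaled distances from -4.07 to -2.47.

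Of the 9 genes of creatine and ketone use in other tissues, 1 was higher and 3 were lower as deposited (all genes: 2.95% and 9.98%). After scaling the counts were 1 and 1 (all genes: 5.27% and 2.32%), and with so few members they are a description. Gamt, which completes creatine synthesis, was higher at 197 and 162 TPM (at most 31.7 elsewhere), while Ckb, Oxct1 and the creatine carrier Slc6a8 were lower, of which Ckb kept its call after scaling. Slc6a8 was at 1.35 and 1.24 TPM, against 4.7 TPM in the lowest spleen library and 252 TPM in the highest ESC library. The step before Gamt was not set apart. Gatm, which makes guanidinoacetate, was at 6.52 and 7.96 TPM in liver, with up to 1015 TPM in kidney.

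Some structural genes were lower in liver, and fewer of them after scaling. Of 32 extracellular matrix genes, 8 were lower and 1 higher as deposited (all genes: 9.98% and 2.95%), and 3 of the 8 (Lamb2, Lama5 and Sparc) were lower under both scalings (all genes: 2.31%). With so few members, these counts are a description of the list. Laminin beta 2, Lamb2, was at 1.95 and 2.27 TPM against 20.4 to 346 TPM. Col4a2, a basement membrane collagen, was at 5.63 and 7.45 TPM, and its call was lost both after scaling and without liver replicate 1 (adjusted p = 0.054). The higher gene was Col18a1, at 291 and 313 TPM against at most 158 TPM. Of 32 actin and junction genes, 6 were lower and 1 higher, and Flna, Myh10 and Actg1 were lower under both scalings, against the same shares of all genes. Filamin A, Flna, was at 5.2 and 5.52 TPM against 44.4 to 334 TPM. Claudin 1, Cldn1, a tight junction protein, was the higher gene at 109 and 115 TPM (at most 30.7, in kidney). Actb, at 352 in both libraries, was 0.22 ± 0.11 below heart and was not called.

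Transcription factors known for liver identity were partly set apart. Of 25, 6 were higher and none lower as deposited (all genes: 2.95% and 9.98%), with a median of 2.52. Scaling brought the higher ones to 11 (all genes: 5.27%). The 6 were Creb3l3, Nr1i3, Foxa3, Onecut1, Onecut2 and Nr1i2. Creb3l3, a membrane-bound factor of the fasting response, was at 119 and 124 TPM (at most 0.377 elsewhere), and the xenobiotic receptor Nr1i3 at 162 and 144 TPM (at most 2.78). Others were shared with 1 further organ. Hnf4a was at 191 and 220 TPM in liver and up to 335 TPM in kidney. Cebpa was at 174 and 185 TPM with up to 97.1 TPM in lung, a distance of 0.95 ± 0.12 that passed only after scaling.

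Splicing regulators were examined because the second readout is exon inclusion. Of 59, none was higher and 3 were lower as deposited (Hnrnpl, Hnrnpa1 and Tia1), a smaller share than the 9.98% of all genes, and after scaling 1 was higher and none lower. The median regulator was -1.46 from the mean of the other tissues as deposited and -0.44 after scaling, close to the -0.39 of all genes. Hnrnpl was at 28.4 and 27.1 TPM against 82.4 to 240 TPM, a distance of -1.55 ± 0.07 that became -0.49. Hnrnpa1 was at 47.3 and 44.4 TPM against 133 to 1267 TPM, and Tia1 at 1.61 and 1.54 TPM against 4.3 to 39.7 TPM. The gene higher after scaling was Esrp2, an epithelial splicing regulator, at 55.3 and 53.2 TPM with kidney at up to 38.9 TPM, a distance of 0.49 ± 0.10 as deposited.

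Skipped exons were tested on junction reads in 14651 events of 6111 genes, of 24219 events in the liver table. Each had 20 or more reads in both liver libraries and in both libraries of at least 3 other tissues and lay on an autosome, and 7913 were expressed in all 6. An exon was called when liver differed from each expressing tissue (quasi-binomial F test, the largest p, Benjamini-Hochberg adjusted p under 0.05), on the same side of all, by at least 0.1 in PSI from the nearest. By this rule 20 events had higher inclusion in liver (0.137% of those tested) and 5 lower (0.0341%). They amount to 19 and 5 distinct exons in 21 genes. At an unadjusted p under 0.05 with the same limits of side and size, 63 and 38 events passed. The PSI of the 2 liver libraries differed by less than 0.108 in 95% of events, against 0.165 for the ESC clones and 0.065 to 0.104 for the other tissues.

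**Figure D5:**
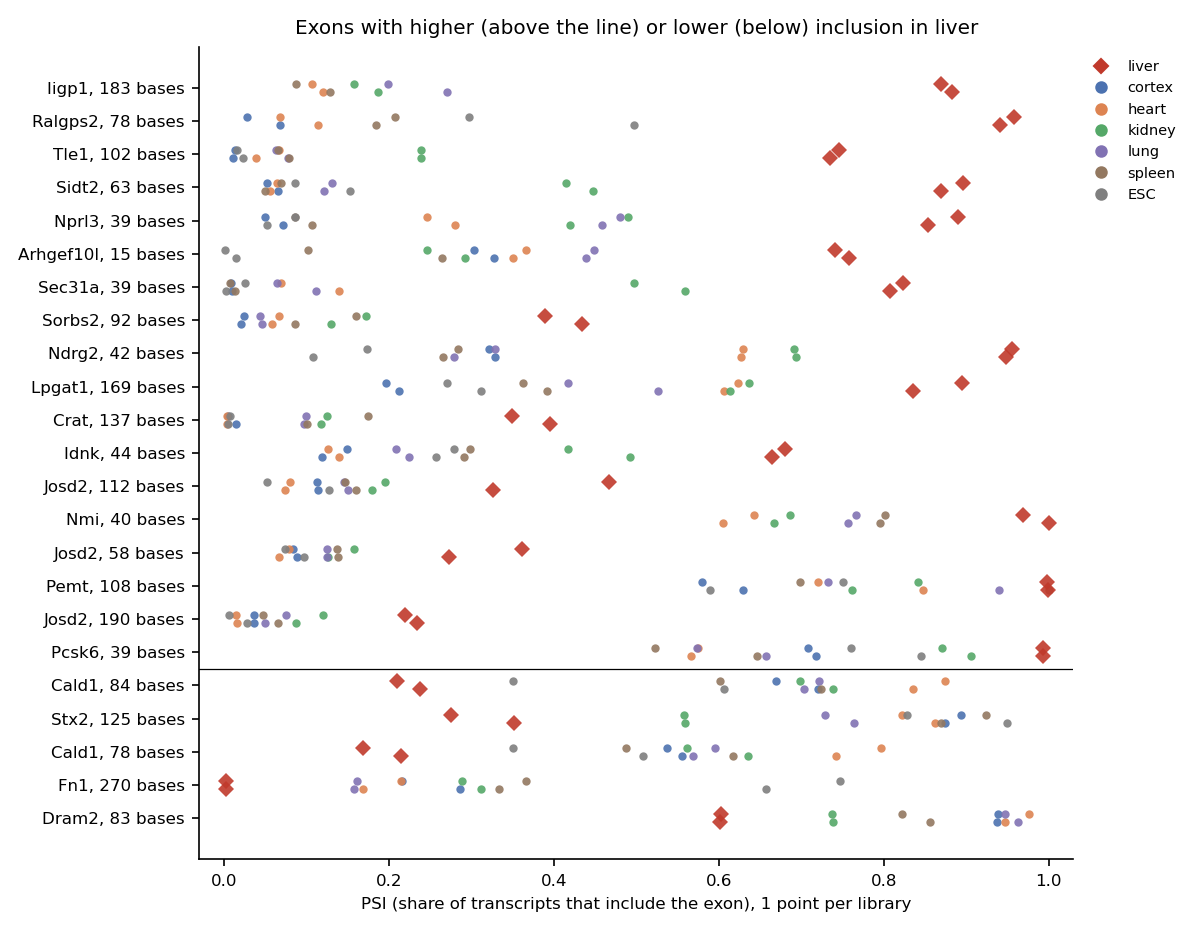
PSI (horizontal axis, 0 to 1) of 23 of the 24 distinct exons called in liver, 1 point per library with 20 or more reads in both replicates; red diamonds are liver and the line separates the 18 exons drawn with higher from the 5 with lower inclusion. Liver points stand clear of all others except for Pemt, where 1 spleen library also reads 1, and kidney is most often the nearest colour.

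The largest shift was in Iigp1, an interferon-inducible GTPase, where an exon of 183 bases was included at 0.882 and 0.869 in liver (1309 and 1769 reads) and at 0.0866 to 0.271 in the 8 libraries of heart, kidney, lung and spleen (quasi-binomial F test, adjusted p = 3.2e-06). Ralgps2, an exchange factor for Ral, kept an exon of 78 bases (mm10, chr1:156821387-156821464) at 0.941 and 0.958 in liver and 0.0282 to 0.496 in cortex, heart, spleen and ESC, with an ESC library highest. Kidney and lung were below the read limit for this exon. Tle1, a transcriptional corepressor, kept one of 102 bases (chr4:72138962-72139063) at 0.735 and 0.745 against 0.0108 to 0.239. In these 3 genes the usual form switched from skipping to inclusion, with distances to the nearest tissue of 0.641, 0.553 and 0.501.

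The next exons by distance included ones in Sidt2, Nprl3, Sec31a and Ndrg2. Sidt2, a lysosomal membrane protein, included an exon of 63 bases (chr9:45946506-45946568) at 0.869 and 0.896 in liver, at 0.431 in kidney on average and at a median of 0.0775 over the other 12 libraries (adjusted p = 5.5e-10). Nprl3, a subunit of the complex that restrains mTORC1 at the lysosome, included 39 bases (chr11:32259217-32259255) at 0.854 and 0.890 against 0.049 to 0.489. Sec31a, a component of the COPII vesicle coat, included 39 bases (chr5:100369596-100369634) at 0.808 and 0.824 against 0.00232 to 0.559. Kidney was between liver and the remaining tissues in both Sidt2 and Sec31a. Ndrg2, a gene of the N-myc downstream-regulated family, had the deepest coverage of the called exons: 42 bases (chr14:51911086-51911127) were included at 0.948 and 0.956 over 25074 and 23248 reads, against 0.108 to 0.694 elsewhere (adjusted p = 1.7e-10).

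Arhgef10l, an exchange factor for small GTPases, included a micro-exon of 15 bases (chr4:140568756-140568770) at 0.757 and 0.741 in liver against 0.00154 to 0.449 (adjusted p = 0.0029), and this call was lost without either liver replicate (adjusted p = 0.056 and 0.072). Idnk, a gluconate kinase, included 44 bases (chr13:58162838-58162881) at 0.665 and 0.680 against 0.119 to 0.492. Sorbs2, an actin-linked adaptor, was at 0.434 and 0.389 against 0.0209 to 0.172 for 92 bases, and its adjusted p of 0.049 was just inside the limit. ESC had too few reads for this exon. Josd2, a deubiquitinase, had 3 called exons that share sequence or lie close together and are not independent. The first, of 112 bases (chr7:44468306-44468417), was at 0.326 and 0.467 against 0.0523 to 0.195, the widest gap between liver replicates of all called exons (0.141). With another upstream flanking exon it read 0.741 and 0.665 against 0.2 to 0.634 and was not called.

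Pemt, Crat and Lpgat1 encode enzymes of lipid or acyl group metabolism. Pemt, which makes phosphatidylcholine in liver, included 108 bases (chr11:60031713-60031820) at 0.999 and 0.997 against 0.579 to 1, and 1 spleen library overlapped with liver. Crat, a carnitine acetyltransferase, was at 0.395 and 0.348 for 137 bases (166 and 178 reads) against 0.00298 to 0.175. With another upstream flank (minus strand) and more reads (410 and 436), the same Crat exon read 0.170 and 0.201, inside the range of the other tissues. Lpgat1, an acyltransferase, was at 0.835 and 0.895 for 169 bases against 0.196 to 0.637. Among the others, the proprotein convertase Pcsk6 was at 0.993 in both libraries for 39 bases, where other tissues reached 0.906. Nmi, a partner of STAT proteins, was at 1 and 0.969 for 40 bases (241 and 196 reads). Heart, kidney, lung and spleen, the tissues with enough reads, reached 0.801. With another upstream flank (minus strand) and more reads (571 and 453), the same Nmi exon read 0.667 and 0.707 against at most 0.482. It was not called (quasi-binomial F test, adjusted p = 0.28).

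Inclusion was lower in liver for 5 exons of 4 genes. In Fn1, fibronectin, an exon of 270 bases (chr1:71603660-71603929), the length of the extra domain A exon, was included at 0.00267 and 0.00205 over 11845 and 12702 reads. The other 12 libraries ranged from 0.157 in lung to 0.747 in an ESC clone with a median of 0.287 (distance -0.157, adjusted p = 4.7e-08). The second extra domain exon, of 273 bases (chr1:71613763-71614035), was also nearly absent from liver at 0.00216 and 0.00376, but the other tissues ranged from 0.0071 to 0.653 and the exon was not called (adjusted p = 1). Fn1 as a gene was not set apart, at 466 and 553 TPM against 40.1 to 861 TPM, the highest in ESC.

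Cald1, caldesmon, an actin-binding protein, had an exon with 2 alternative starts, of 84 bases (chr6:34747886-34747969) and 78 bases. With 1 upstream flank, the longer form was included at 0.237 and 0.210 in liver (391 and 421 reads) against 0.350 to 0.874 elsewhere (adjusted p = 0.0014). With 2 other upstream flanks it was not called. One of these read 0.970 and 0.904 (129 and 119 reads). The other had the most liver reads (1820 and 1966) and read 0.0753 and 0.0601 against 0.119 to 0.194. Stx2, a syntaxin of membrane fusion, was at 0.351 and 0.276 for 125 bases (chr5:128987718-128987842) against 0.557 to 0.950, with an adjusted p of 0.045. Dram2, a regulator of autophagy, was at 0.601 and 0.603 for 83 bases (chr3:106571611-106571693) against 0.737 to 0.976 in the 5 organs, with ESC below the read limit. In all, 7 of the 24 exons had another tested event with other flanks, 8 such events, of which 1, in Sec31a, was called.

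The number of calls depended on single libraries. Without liver replicate 1, 14 of the 24 exons were called, without liver replicate 2, 12, and 10 whichever was left out. The 10 were those of Iigp1, Ralgps2, Tle1, Sidt2, Nprl3, Sec31a, Ndrg2, Idnk and Fn1 and the longer exon of Cald1. By limma on the arcsine of the square root of PSI, which does not weight libraries by their reads, 8 were called. The 5 events with lower inclusion became 2 without cortex replicate 1 and 3 without cortex replicate 2, kidney replicate 1 or either liver replicate.

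The 24 exons were further described by length, nearest tissue and host gene. Their median length was 83.5 bases (111 over all tested), 8 were 60 bases or shorter (33.3% against 13.4%), and 13 had a length divisible by 3 (54.2% against 42%). All 8 short exons had higher inclusion. Kidney was the nearest tissue for 14, lung for 4, and spleen and ESC for 3 each. The host gene was called higher for 3 exons and lower for none, where 1.91% and 12.3% of all tested events lie in such genes. These hosts included Pemt at 237 and 227 TPM (at most 5.17 elsewhere) and Iigp1 at 160 and 205 TPM (at most 112).

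Reads that carry a variant between the parental genomes gave the PSI of each allele in liver for 23 of the 24 exons. Both alleles lay beyond every other library, read on all its reads, in 17 of them. The allelic reads are part of the liver reads that gave the calls, so this is no independent check. No filter on the match of allelic with total PSI, as the paper used, was applied here. The alleles differed by a median of 0.124 and at most by 0.402, in Idnk, where they read 0.484 and 0.886. Those of Fn1 read 0.00171 and 0.00243, those of Ndrg2 0.978 and 0.981, and those of Sidt2 0.858 and 0.891. DMSO-treated fibroblasts had reads for 23 of the exons and entered no test. Liver lay beyond both fibroblast libraries in 22, and the exception was Arhgef10l, at 0.940 and 0.949 in fibroblasts.

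A list of 30 genes with exons known to differ in liver or epithelia was read in the same way. Of them, 26 had a tested event, 105 events in all. Of these events 2 were called higher and 1 lower (all events: 0.137% and 0.0341%), among them Arhgef10l and Fn1. As genes, 3 of the 30 were higher in liver, among them Lsr and Ceacam1, and 7 lower as deposited (all genes: 2.95% and 9.98%). After scaling the counts were 4 and 1 (all genes: 5.27% and 2.32%). Macf1, a linker of actin and microtubules, was the 1 lower both ways, at 4.78 and 5.05 TPM against 23.2 to 143 TPM. Tpm1 and Nf2 were lower only as deposited. Insr, whose exon inclusion in liver is well known, was at 29.6 and 27.4 TPM, and its exon was not analysed here.

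The ESC clones had the widest replicate spread, and the exon counts changed when they were left out. This also removed a tissue that liver had to differ from, and which of these mattered was not tested. Without the ESC libraries 34 events had higher (0.25% of 13582) and 14 lower inclusion (0.103%), and all 25 events called with them stayed. The 23 added events, chosen after seeing the data, included exons of known epithelial interest. Tjp1, the tight junction protein ZO-1, included 240 bases (chr7:65314093-65314332) at 0.721 and 0.786 in liver against 0.502 in kidney on average (adjusted p = 0.0025 without ESC, 1 with ESC). Slk, a kinase, included 93 bases (chr19:47627648-47627740) at 0.806 and 0.805 against 0.604 in kidney. Mbnl1, itself a splicing regulator, included 95 bases (chr3:60622146-60622240) at 0.543 and 0.620, against 0.754 in kidney as the nearest. This held for 1 pair of flanking exons, and with another upstream flank the same exon read 0.902 and 0.988 against 0.843 to 0.976 elsewhere and was not called. Chpt1, of phosphatidylcholine synthesis, included 73 bases (chr10:88471388-88471460) at 0 and 0.0485 in liver and at 0.321 in lung on average, and only heart, kidney and lung had enough reads for a comparison. Bclaf1, a nuclear factor, was at 0.437 and 0.470 for 147 bases against 0.563 in spleen.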

How the data were processed

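RNA-seq of 14 F1 libraries was compared, 2 per tissue; labels of organ libraries name separate replicates. The authors aligned reads to both parental genomes with HISAT2 2.0.1 (mm10, from the submitters' processing notes), counted fragments per gene with fractional sharing between overlapping genes, and deposited TPM. Skipped-exon junction reads came from rMATS tables that the authors deposited, counting inclusion and skipping reads and their effective lengths (75 for skipping, 77 to 150 for inclusion). Their PSI, fold and p columns were not used. Inclusion and skipping reads were divided by these lengths to give PSI. The reads of a replicate were taken by their place in a cell of 2 values.

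Genes with 1 TPM or more in both libraries of at least 1 tissue were fitted by limma 3.58.1 (R 4.3.3, trend and robust) on log2(TPM + 1), a scale that understates changes of low genes. Exons were fitted by a quasi-binomial model with dispersions moderated by limma's squeezeVar. Both were tested on simulated data. TPM keeps no depth. Junction reads summed over events, in which a read can count more than once, came to 113940153 and 129496306 in the liver libraries and to 46558287 to 95702534 in the others. Gene coordinates are RefSeq GRCm38.p6, matched by symbol for 31941 of 38713 names. Exon coordinates are 1-based, and their place in coding sequence or UTR was not analysed here.

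Genes named are the 10 farthest above and below, and from each list 2 to 4 called members and up to 2 not called with the highest TPM. Exons named are up to 12 per direction, plus Fn1 and Insr, and the other 7 higher exons were added after their values were seen. Also named after seeing values are the enzyme pairs and further called members given as exceptions or to complete a count. Members and lists were chosen with earlier results of these data known. P-values rest on the spread between 2 animals or clones per tissue, pooled over the tissues fitted and moderated across genes or events. The wide spread of the ESC clones therefore enters them, and the SE given for genes rests on the same pooled spread. Alternatives covered scaling, pseudocount, filters, read minimum, each library left out and the replicate block. Some members of the lists are not reported here.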

Additional observations from a re-analysis of the deposited data

How the results depend on the processing

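For genes called higher and lower (643 and 2172), the counts were 1148 and 505 after median-of-ratios scaling, 1523 and 11304 when liver was set against the mean of the 6 tissues, 425 and 337 at a log2 difference of 2, and 621 to 647 and 2041 to 2269 with 1 library left out. A pseudocount of 0.1 TPM gave 3872 lower genes. Of the 79 called genes that the naming rule chose, 71 kept their call after scaling and 79 with the other pseudocount. The 8 lost were Hnrnpl, Hnrnpa1, Tia1, Col4a2, Oxct1, Slc6a8, Tpm1 and Nf2, and Mat2a, Bmp6, Pfkl and Pfkm, named beside them, also lost their call after scaling.

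For exon events with higher and lower inclusion (20 and 5), limma on the arcsine gave 7 and 1, and the mean of the expressing tissues as comparator 486 and 455. Without the ESC libraries the counts were 34 and 14, and with 1 library left out 12 to 30 and 2 to 13. Leaving out a liver library gave 12 to 14 and 3, and leaving out an ESC library 28 to 30 and 10 to 13. Lower inclusion held for 3 events at a PSI difference of 0.2 and for 3 when all 6 tissues had to be expressed. The cause of these changes was not tested.

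Replicate numbers were not shown to pair the samples. The correlation of same-numbered deviations ran from -0.05 to 0.257 over pairs of tissues for genes and from -0.0866 to 0.0551 for events. Between organs all gene values were positive, from 0.0035 (kidney with liver) to 0.257 (heart with spleen), and the negative ones involved ESC. Whether same-numbered organ libraries came from the same animal was not tested. With a replicate block the gene counts were 644 and 2173, sharing 2810 of 2815 calls, and the arcsine fit of exons gave 6 and 1. Depth limits exons with few reads: the called ones had 154 to 25074 reads in a liver library, and events under 20 reads were not tested.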
